A study of Homo sapiens with 4 samples.

Results

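The Hedgehog pathway genes described here are GLI1, GLI2, GLI3, PTCH1, SMO, SUFU, HHIP, BOC and CDON, chosen by name for their place in the pathway and not by their values. Rows were found for 8 of these 9 genes among the 18375 genes of the deposited table, and HHIP, which encodes a decoy receptor for the ligand, was not analysed here. All 8 passed the filter on low values that left 18330 genes for testing. The libraries came from RD, a human fusion-negative rhabdomyosarcoma cell line with features of immature skeletal muscle, labelled as wild type in both groups. The parental group held 2 libraries from untreated cells and the resistant group 2 libraries from vincristine-resistant derivatives. Vincristine is an antimitotic drug whose target is tubulin. The derivatives were selected from a dose of 1 to 1.5 nM, at which roughly 80 to 90% of cells died, in steps of 10 to 20% over 9 to 12 months, until the concentration that inhibits growth by 50% had risen at least 100-fold. The labels do not say whether the drug was present when RNA was taken, nor whether the replicates were separate cultures or separate selections, so the spread behind each p-value is only that among these libraries and may be technical.

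Hedgehog ligands bind the receptor PTCH1, with BOC, CDON and GAS1 as co-receptors, and binding lifts the block that PTCH1 places on the membrane protein SMO. Active SMO, at the primary cilium, releases GLI transcription factors from SUFU and from processing into repressors. GLI2 is the main activator, GLI3 acts largely as a repressor after processing, and GLI1 is itself a target gene whose transcript is widely used as a readout of the pathway, as is that of PTCH1. In skeletal muscle the pathway acts on myoblast specification, BOC and CDON also promote myogenic differentiation at cell contacts, and loss of PTCH1 function predisposes to rhabdomyosarcoma.

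The GLI factors bind the motif GACCACCCA, and PTCH1 is a textbook target, so its promoter is shown. The motif was searched as GACCACCCA and its reverse complement TGGGTGGTC in RefSeq promoter windows of 300 bases (GRCh38.p14, 250 before to 50 after each start). These windows matched 6 of the 8 genes with a row, and PTCH1 has 5 of them, for different transcript starts. PTCH1 alone among those 6 genes held the motif, in 1 window on the minus strand of chromosome 9 (chr9:95509217-95509516, written 5′ to 3′ along the gene), with the match in capitals at 95509430 to 95509438.

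PTCH1: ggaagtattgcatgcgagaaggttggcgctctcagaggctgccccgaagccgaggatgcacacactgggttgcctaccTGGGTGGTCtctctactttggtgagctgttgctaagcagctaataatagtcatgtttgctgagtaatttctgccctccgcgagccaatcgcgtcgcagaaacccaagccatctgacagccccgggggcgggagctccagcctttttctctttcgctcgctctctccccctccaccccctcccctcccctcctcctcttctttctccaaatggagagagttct

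The match begins 172 bases before the start of that window's transcript. Of 35116 windows of this length, 83 held the motif (0.236%), and none of the 18 Hedgehog target genes outside the members with a window did. The 36 tested genes with the motif in a window split into 13 higher, 14 lower and 9 not past the threshold in resistant cells. Among the 11471 tested genes with a window, 34.6% were higher and 39.3% lower. A match is a run of letters and not evidence of binding.

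The comparison asked which Hedgehog genes differed between resistant and parental cells. GLI3 rose 2.95-fold, BOC 2.45-fold, CDON 1.69-fold, GLI1 1.65-fold and SUFU 1.34-fold. PTCH1 fell by 21.3% and GLI2 fell by 17.6%, and no change was detected for SMO. Values are the deposited normalized counts, which are read counts divided by a size factor per library. Fold changes are on the scale of log2(value + 1), resistant minus parental, and a gene was called at an adjusted p below 0.05 in limma over all 18330 genes. Of the 8 members, 5 were called higher, where 32.7% of all tested genes were, and 2 lower, where 34.2% were. The groups did not overlap for 7 of the 8 members, against 82.1% of all tested genes, so this count alone does not set the members apart. In either direction 7 of the 8 were called, against 66.9% of all tested genes, and 2 members, GLI3 and BOC, rose by at least 2-fold, as did 8.96% of all tested genes. The median log2 fold change of the 8 members was 0.57, beside 0.00427 over all tested genes.

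**Figure D1:**
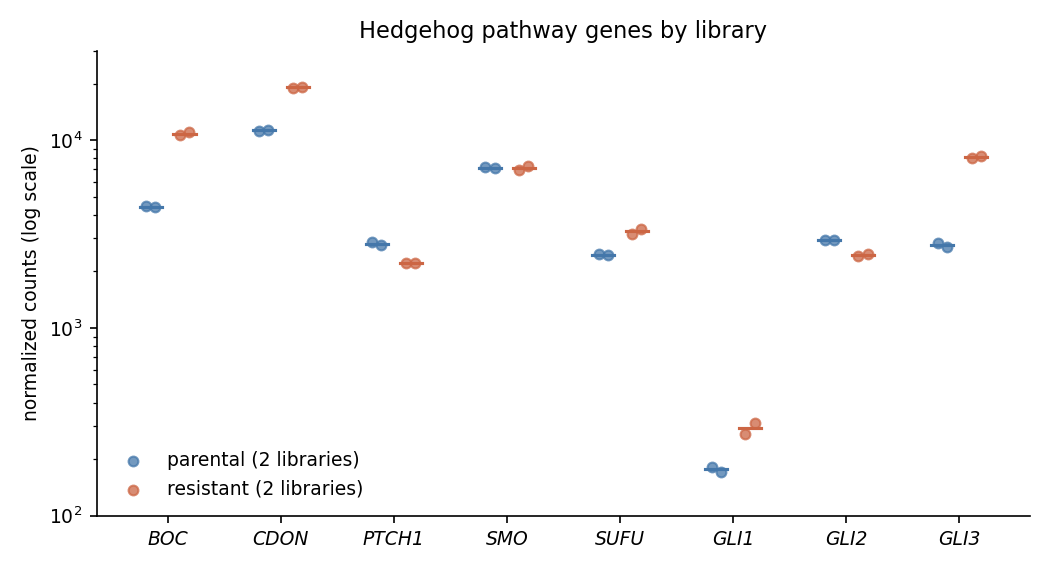
Normalized counts (log scale) of the 8 Hedgehog pathway genes in each library. Points are libraries, 2 per group, and horizontal lines are group means. GLI3 and BOC lie furthest apart between groups, and the SMO libraries of the groups interleave.

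Among the co-receptors, BOC had 4441 and 4395 normalized counts in the parental libraries and 10665 and 11005 in the resistant ones. Both resistant libraries were more than 2-fold above both parental ones. BOC (ENSG00000144857, GRCh38 chromosome 3 from 113211003 to 113287459) encodes an immunoglobulin and fibronectin repeat protein of the cell surface, and its log2 fold change was 1.29 (SE 0.03, limma adjusted p = 4.74e-22). Only 10.5% of tested genes had a larger absolute change.

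CDON, the paralog of BOC, had 11269 and 11353 normalized counts in parental and 18972 and 19294 in resistant libraries. The groups were well separated and the libraries of each differed little. Its log2 fold change was 0.76 (SE 0.03, limma adjusted p = 3.17e-18). CDON (ENSG00000064309, chromosome 11 from 125955796 to 126063335) shares 26.7% of its exonic bases with VSIG10L2 on the opposite strand, and since the strand setting of the counting is unknown, its value may include reads of that gene. The third co-receptor gene, GAS1, which encodes a membrane-anchored protein, was named after its values were seen. It had 47152 and 46418 against 42184 and 45816 normalized counts, a log2 fold change of -0.09 (SE 0.03, limma adjusted p = 0.0137). The GAS1 call was lost under 7 of 16 alternatives, among them the leaving out of parental replicate 1, parental replicate 2 or resistant replicate 1 (the last at -0.03, limma adjusted p = 0.132).

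PTCH1, the receptor and pathway inhibitor, had 2870 and 2761 normalized counts in parental and 2223 and 2207 in resistant libraries. Both resistant libraries were lower than both parental ones, by a log2 fold change of -0.35 (SE 0.04, limma adjusted p = 8.00e-08). PTCH1 (ENSG00000185920) lies on chromosome 9 from 95442980 to 95517057, and an antisense transcript covers 4.29% of its exonic bases. The call did not hold against a change of 1.2-fold (limma treat adjusted p = 0.0861), so a decrease beyond that size was not shown.

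SMO, the signal transducer and the target of clinical Hedgehog inhibitors, had 7210 and 7097 normalized counts in parental and 6925 and 7329 in resistant libraries, and the groups overlapped. Its log2 fold change was -0.0059 (SE 0.03, limma adjusted p = 0.892), with a 95% interval of -0.078 to 0.066. SMO (ENSG00000128602) lies on chromosome 7 from 129188872 to 129213545.

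SUFU, the cytoplasmic protein that holds GLI factors inactive, had 2465 and 2450 normalized counts in parental and 3178 and 3389 in resistant libraries. The resistant libraries were higher and differed more from each other than the parental ones. The log2 fold change was 0.42 (SE 0.04, limma adjusted p = 2.37e-09). SUFU (ENSG00000107882) lies on chromosome 10 from 102503987 to 102633535, among genes that mostly rose as well.

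The GLI factors moved in different directions. GLI3 (ENSG00000106571, chromosome 7 from 41960950 to 42237870) had 2823 and 2707 normalized counts in parental and 8036 and 8272 in resistant libraries. Its lowest resistant library was far above its highest parental one, and the log2 fold change of 1.56 (SE 0.04, limma adjusted p = 7.81e-23) was the largest of the 8 genes. A larger absolute change was found for 7.82% of all tested genes. GLI2 (ENSG00000074047, chromosome 2 from 120735623 to 120992653) had 2958 and 2961 against 2405 and 2473 normalized counts, a log2 fold change of -0.28 (SE 0.04, limma adjusted p = 1.65e-06). The parental libraries of GLI2 were almost equal and both resistant ones lay below them. GLI2 did not pass against 1.2-fold (limma treat adjusted p = 0.646) or with an assumed dispersion of 0.01 between cultures (edgeR adjusted p = 0.117). GLI1 (ENSG00000111087, chromosome 12 from 57460135 to 57472262), the member with the lowest level per kilobase, had 182 and 171 against 274 and 310 normalized counts, from 188, 172, 253 and 325 reads. The groups did not overlap, and the log2 fold change was 0.72 (SE 0.12, limma adjusted p = 4.08e-06). GLI1 and PTCH1, the usual transcripts by which the pathway is read, thus had opposite signs. The authors' deposited table gives log2 fold changes of 0.73 for GLI1, -0.35 for PTCH1, 1.56 for GLI3 and -0.28 for GLI2.

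To compare levels between genes, normalized counts were divided by the length of each gene's annotated exons. Per kilobase, GLI2 exceeded GLI3 in parental cells, at 403 ± 0.203 against 253 ± 7.49 (SD over the n = 2 libraries of a group, here and in what follows), and GLI3 exceeded GLI2 in resistant cells, at 745 ± 15.3 against 332 ± 6.52. The ratio of the GLI3 to the GLI2 level went from 0.626 ± 0.0189 to 2.24 ± 0.00196. Of the summed level of the GLI genes, GLI3 made up 36.2% ± 0.602 in parental and 65.0% ± 0.250 in resistant cells. GLI2 made up 57.8% ± 0.783 and 29.0% ± 0.137, and GLI1 6.01% ± 0.181 and 6.05% ± 0.387. GLI2 exceeded GLI3 in parental cells and GLI3 exceeded GLI2 in resistant cells also with the longest transcript or the coding length as divisor. The parental excess of GLI2 was small by coding length, with a GLI3 to GLI2 ratio of 0.938 ± 0.0283, and 0.774 ± 0.0234 by longest transcript. These are transcript levels, and the files hold no measure of GLI protein or its processing.

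BOC also gained on CDON, though both rose, from 28.6% ± 0.256 to 36.8% ± 0.238 of their summed level per kilobase. As stated above, the CDON level behind these shares may include reads of VSIG10L2. BOC shares 4.97% of its exonic bases with CFAP44 on the opposite strand, so its level may likewise include reads of that gene. CDON stayed the higher of the pair, at 1067 ± 5.60 and 1805 ± 21.5 per kilobase against 428 ± 3.11 and 1049 ± 23.2 for BOC. In parental cells the order from highest to lowest level per kilobase was SMO, CDON, BOC, GLI2, SUFU, GLI3, PTCH1 and GLI1. In resistant cells it was CDON, SMO, BOC, GLI3, SUFU, GLI2, PTCH1 and GLI1. No neighbours in either order overlapped between libraries, but the order depends on the length used. By longest transcript SMO and BOC overlapped in resistant cells, and by coding length GLI2 and PTCH1 did. GLI1 was last in both groups with each of the lengths.

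**Figure D2:**
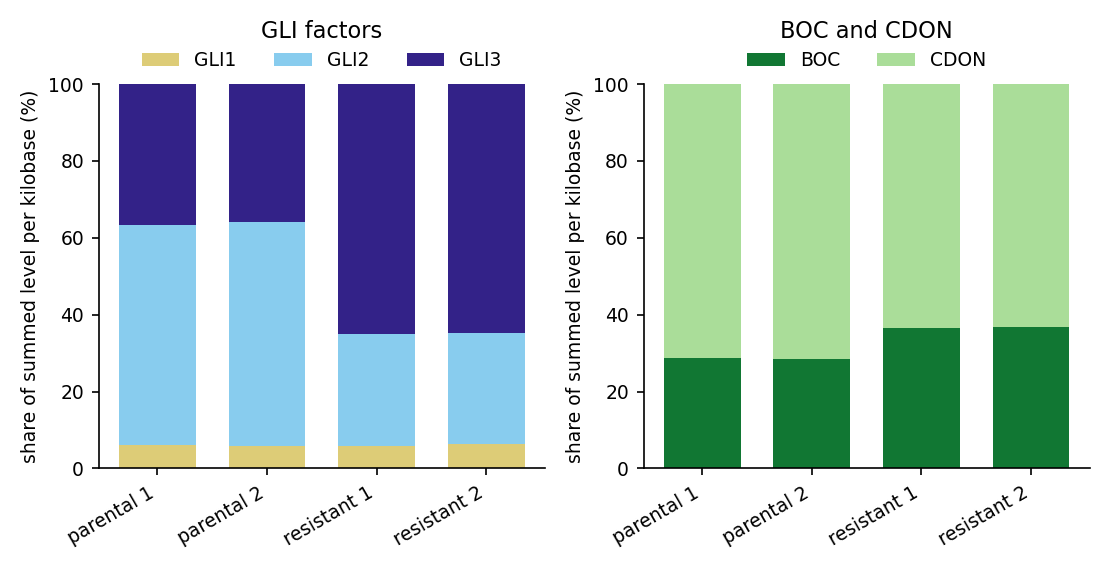
Share of each gene in the summed level per kilobase of exon, by library, for GLI1, GLI2 and GLI3 (left) and for BOC and CDON (right). GLI3 makes up 36.2% of the GLI level in parental and 65.0% in resistant libraries on average, and the libraries of a group are close.

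Each member was also set beside the 10 nearest tested genes on each side. GLI3 stood above 19 of its 20 neighbours, whose median log2 fold change was -0.07. The exception was INHBA-AS1, at 1.60, and the nearby activin subunit gene INHBA was at 1.03. BOC and CDON each stood above 18 of 20, with neighbour medians of 0.20 and 0.10. Of the 20 neighbours of BOC, 12 were called higher and 3 lower, and of those of CDON 7 and 5. Over all tested genes 32.7% were called higher and 34.2% lower. PTCH1 was below 19 of 20, whose median was 0.19. SUFU was different, because 15 of its 20 neighbours over 1.06 Mb were called higher and their median of 0.57 exceeded its own 0.42. For GLI1, 15 of 20 neighbours over 0.564 Mb were higher, with a median of 0.33, and 4 had a larger value than GLI1. GLI2 lay close to its neighbours, whose median was -0.16, as did SMO, at -0.13. The part of copy number in these values was not tested.

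**Figure D3:**
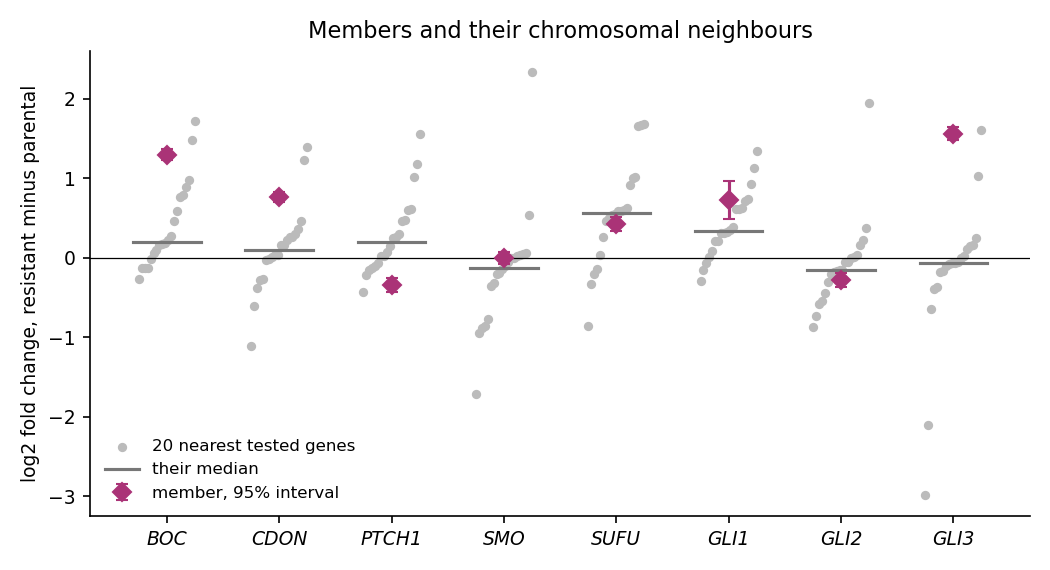
Log2 fold change, resistant minus parental, of each Hedgehog gene (diamonds with the 95% interval of the limma fit) and of its 20 nearest tested genes (grey points, line at their median). GLI3, BOC and CDON lie above and PTCH1 below nearly all of their neighbours, and SUFU lies under the median of its own.

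The wider pathway was described by 5 further gene lists, each read beside the 32.7% of all tested genes called higher and the 34.2% called lower. Because these lists were chosen with earlier results of these data known, their shares are descriptions and not tests. Among 12 measured genes of ligands and ligand release, 7 rose (58.3%), 2 fell (16.7%) and 3 did not pass, with a median log2 fold change of 0.72. The ligand genes SHH and DHH were not analysed here, and IHH, the third ligand gene and named after its values were seen, had 9.55 to 14.9 normalized counts in the 4 libraries and did not pass. Glypicans, cell surface proteoglycans that bind Hedgehog and other ligands, held the largest changes. GPC3, known to inhibit Hedgehog signalling, rose from 307 and 303 to 4994 and 5108 normalized counts, a log2 fold change of 4.04 (SE 0.05, limma adjusted p = 3.86e-28). GPC4 (X chromosome, 133300103 to 133415490), beside GPC3 (133535745 to 133985895), rose from 127 and 148 to 1427 and 1502 (3.41, SE 0.09). GPC6 fell from 3053 and 2956 to 192 and 148, a log2 fold change of -4.15 (SE 0.09). DISP2, a relative of the ligand release protein Dispatched, was lower as well, at -1.30 (SE 0.05).

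Of 13 other receptors, co-receptors and regulators of SMO, 8 fell (61.5%, against 34.2% of all tested genes), 1 rose (7.69%, against 32.7%) and 4 did not pass, with a median of -0.30. EVC2, a ciliary scaffold that binds active SMO, fell from 337 and 336 to 127 and 138 normalized counts (-1.34, SE 0.12). GPR161, a ciliary receptor that represses the pathway through cAMP, fell by 0.68 (SE 0.06) and GRK2, a kinase that acts on SMO, by 0.50 (SE 0.03). Members that promote and members that restrain the pathway were thus both among those that fell.

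Of 31 kinases, ubiquitin ligases and other regulators of GLI proteins, 18 fell (58.1%, against 34.2% of all tested genes), 8 rose (25.8%, against 32.7%) and 5 did not pass, with a median of -0.10. The protein kinase A genes PRKAR1A (-0.76, SE 0.03) and PRKACA (-0.59, SE 0.03) and the kinase gene GSK3A (-0.63, SE 0.03) were lower. PRKACA and GSK3A encode kinases that act in the phosphorylation of GLI proteins that precedes processing. PRKAR1A encodes a regulatory subunit that holds the catalytic subunits of protein kinase A inactive. ZIC1, a zinc finger factor related to the GLI family, had 10533 and 10099 against 6449 and 6893 normalized counts (-0.63, SE 0.04). Most changes in this group were small. Against 1.2-fold, 6 were lower and 3 higher. Without parental replicate 2 the counts were 11 lower and 4 higher. GSK3A shares 11.6% of its exonic bases with another gene on the same strand.

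Primary cilium and intraflagellar transport genes, 41 measured, split into 18 higher (43.9%), 15 lower (36.6%) and 8 not past the threshold, with a median of 0.08. These shares are near the 32.7% higher and 34.2% lower of all tested genes. TCTN3, a transition zone gene, rose by 0.62 (SE 0.04), and IFT80 by 1.02 (SE 0.07), with 27.2% of its exonic bases shared with another gene on the same strand. IFT27, a small GTPase of the transport complex, rose from 4.83 and 10.9 to 155 and 173 normalized counts, which are 5, 11, 143 and 181 reads (4.30, SE 0.30). KIF3B, a motor subunit, fell by 0.43 (SE 0.03). Against 1.2-fold, 10 cilium genes were higher and 3 lower.

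Of 25 measured Hedgehog target genes outside the members, 11 rose (44%), 9 fell (36%) and 5 did not pass, with a median of 0.05. These shares too are near the 32.7% and 34.2% of all tested genes. CCND2, which encodes cyclin D2, rose from 3816 and 3704 to 16257 and 16088 normalized counts (2.10, SE 0.03), with 13.8% of its exonic bases shared with a gene on the same strand, and BMP4, a bone morphogenetic protein gene, from 71.5 and 71.6 to 894 and 909 (3.64, SE 0.11). SOX9, a factor of cartilage and progenitor cells, fell from 5662 and 5545 to 928 and 1058 (-2.50, SE 0.05), and FST, the gene of the activin antagonist follistatin, from 1189 and 1257 to 129 and 137 (-3.19, SE 0.09). Others were named after their values were seen. MYCN, a growth regulator, rose from 22.2 and 18.9 to 551 and 521 (4.64, SE 0.16). FOXF1 and FOXL1, forkhead genes that respond to Hedgehog in mesenchyme, rose by 2.40 (SE 0.22) and 2.56 (SE 0.30) from low levels, to 146 and 112 and to 89.8 and 84.0 normalized counts. FOXF1 (chromosome 16, 86510527 to 86515418) lies close to FOXL1 (86576368 to 86582160), so their rises may not be separate. BCL2, an anti-apoptotic gene, fell by 1.08 (SE 0.08). Each of these genes is also under the control of other pathways.

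**Figure D4:**
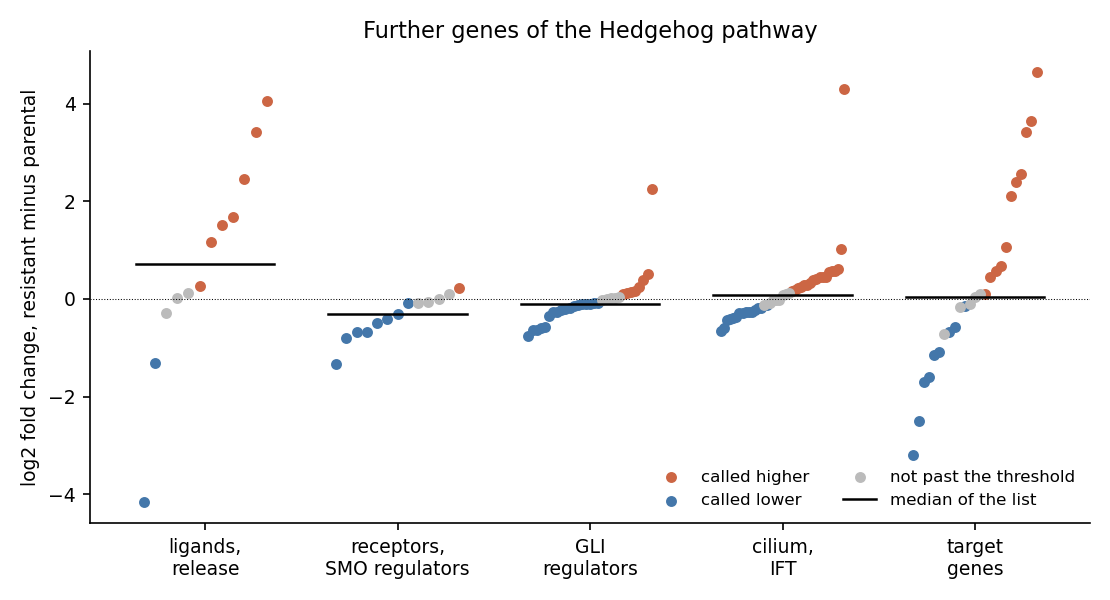
Log2 fold change, resistant minus parental, of every tested gene in 5 further Hedgehog lists, sorted within a list and coloured by its limma call, with a line at the list median. Receptors and SMO regulators lie mostly below 0 (8 of 13 called lower, against 34.2% of all tested genes), and target genes spread widely in both directions.

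Libraries held 58861281 to 67690557 recovered reads. Markers of skeletal muscle were present in every library, with MYOD1 at 15213 to 16936 normalized counts, and 8 of 9 measured muscle markers rose (32.7% of all tested genes did), their summed level going from 101348 and 101645 to 190578 and 195395. Summed levels of other cell types' markers, in the parental and then the resistant libraries, were 5150 to 5171 and 14959 to 15131 for epithelial, 778 to 857 and 1960 to 1981 for endothelial, 716652 to 722540 and 522906 to 527863 for fibroblast, 5053 to 5163 and 4609 to 4949 for neuronal and 59.0 to 65.6 and 70.3 to 78.3 for leukocyte genes. Of these lists, 6 of 7, 2 of 6, 6 of 7, 4 of 6 and 3 of 7 genes were measured, none of them at 0 in any library. Members went both ways in each list. Called higher and lower were 4 and 1 epithelial, 1 and 1 endothelial, 3 and 1 fibroblast, 1 and 3 neuronal and 1 and 1 leukocyte genes. The fibroblast sum fell through COL3A1 alone (673638 and 668027 to 447551 and 441561), while COL1A1 went from 40787 and 40260 to 66962 and 68206. The endothelial sum rose through TEK (188 and 210 to 1729 and 1690), while CLDN5 went from 591 and 647 to 252 and 269. Most of the epithelial rise was in KRT18 (4446 and 4408 to 13747 and 14020), while CLDN4 went from 345 and 346 to 237 and 206. The part of these markers in the Hedgehog values was not tested, and in bulk RNA fewer cells of a type and less RNA per cell cannot be told apart.

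Genes of likest pattern were sought by the Euclidean distance over the 4 libraries between log2 values centred on each gene's mean, among protein-coding genes of similar abundance. For GLI3, compared with 4364 genes, they were TNFRSF8 (distance 0.0392), KRT18 (0.0954) and HEYL (0.0998). For GLI1, compared with 1542 genes, they were ZNF808 (0.0451), C14orf93 (0.0562) and KCNAB3 (0.0632). With 4 libraries in 2 groups, a small distance says little more than that fold changes are of like size.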

How the data were processed

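Poly(A)-enriched RNA from 4 RD libraries was analysed, grouped by the sample titles, with table columns matched by the names their descriptions give. The tools, per the submitters' processing notes, were bcl2fastq 2.17, STAR 2.5.2b, featureCounts of Subread 1.5.2 and DESeq2, with GRCh38. Annotation and strand setting were not given in the sources used here. Library columns of the deposited table hold a signal, normalized counts, for which the authors divided each library's gene counts by 1 size factor, as the values show. In each column 100% of values were whole multiples of 1 step within 0.01, so whole reads were recovered. The log2 fold change and the p-value columns are the authors' own comparison, per the file headers. No gene of the table has a mean below 9.98.

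Genes that reached a value of 10 in 2 or more libraries were tested, and log2 of the value plus 1 was fitted with limma 3.58.1 (intensity trend, group alone, R 4.3.3), with p-values adjusted by Benjamini and Hochberg's method over the whole table and calls made below 0.05. Alternatives used edgeR 4.0.16 and DESeq2 1.42.0 on recovered reads. Positions, lengths and exonic overlaps came from GENCODE 29 on GRCh38, which matched 96.9% of tested genes. Named genes are the members, the 4 genes lowest in adjusted p within each list, and others marked as chosen after their values were seen. Some genes that this rule takes are not reported here. Members and lists were chosen with earlier results of these data known.

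Replicate numbers are shared between groups, but the labels do not say that they mark a pairing, so it was not used in the fit. The libraries of a group differed by more than sampling noise (chi-square per gene 1.61 in the parental and 4.00 in the resistant pair).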

Additional observations from a re-analysis of the deposited data

How the results depend on the processing

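Across 16 alternatives, 5 members were called higher in each. The 2 members called lower became 1 with the edgeR dispersion fixed at 0.01 and 0 against 1.2-fold in limma treat. GLI2 lost its call in both, at -0.28 each (adjusted p = 0.117 and 0.646), and PTCH1 against 1.2-fold, at -0.35 (adjusted p = 0.0861). SMO, not called in any, changed sign when scaled to the same total (0.027) and ranged from -0.047 to 0.035 when 1 library was left out. Over all genes, 3380 higher and 3414 lower genes passed limma treat and 3880 lower genes passed with the fixed dispersion, against 6001 and 6270. With the replicate number as a block, 5926 genes were higher and 6218 lower and the block changed no member's call. Same-numbered libraries did not deviate together (r = -0.03 across genes). The GLI3 share in parental and resistant cells was 41.0 and 69.3% by longest transcript and 46.3 and 74.1% by coding length. The BOC share was 38.3 and 47.4% by longest transcript and 31.1 and 39.5% by coding length. In the lists, beside the counts given above, the fixed dispersion left 3 higher and 6 lower GLI regulators and 6 lower cilium genes, and no intensity trend left 4 and 10 GLI regulators and 8 lower cilium genes. Receptors and SMO regulators had 5 lower against 1.2-fold, and the 1 higher (ARRB2, named after its values were seen) became 0 there and with the fixed dispersion, and 2 without resistant replicate 2. GLI1, with 172 to 325 reads, is the member whose fold change is least precise.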
